A study of Mus musculus with 16 samples.

Results

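The neuroectoderm regulator loci are the genomic surroundings of 9 mouse genes that direct or mark the early nervous system, Sox1, Pax6, Zic1, Neurog1, Neurog2, Atoh1, Neurod1, Olig2 and Nes. An accessible region was assigned to a locus where its centre lay in the gene body or within 100 kb of a transcription start site (TSS) of the gene in the GENCODE M21 annotation on mm10. By this rule 129 of 81132 accessible regions (0.159%) belonged to the 9 loci, and each of the 129 belonged to 1 locus only. The regions come from ATAC-seq, in which the Tn5 transposase cuts open chromatin and tags it for sequencing, of mouse embryonic stem (ES) cells in G1 phase. The 12 libraries were 3 biological replicates each of cells sorted by DNA content and by SOX2 and OCT4 level: SHOH (both high), SHOL (high SOX2 with low OCT4), SLOH (low SOX2 with high OCT4) and SLOL (both low). The study asked how these levels bear on commitment to neuroectoderm and mesendoderm. The list analysed here pools the peaks of all 12 libraries and gives positions only, so that its entries carry no level, no error between replicates and no population of origin, and the 4 populations were not compared.

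All 4 populations were from the same line, SBROS, a clonal derivative of CGR8 ES cells, so that they represent 1 genetic background and 1 clone. In this line both Sox2 alleles were fused to a SNAP-tag and 1 Oct4 allele to a HALO-tag, and the cells also carried the reporters Sox1-P2A-eGFP and Bra-P2A-mCherry. The Sox1 gene, a member here, was therefore itself edited, and a list made on mm10 holds no position inside the inserted sequence. Cells of all 4 populations grew with leukaemia inhibitory factor, CHIR99021 (3 µM) and PD184352 (0.8 µM), which inhibit GSK3 and MEK, and were labelled with HaloTag TMR (100 nM) and SNAP-SiR647 (12 nM) before sorting.

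Neuroectoderm forms from pluripotent cells in the absence of mesendoderm-inducing signals. SOX1, of the same SOXB1 group as SOX2, is among the earliest factors specific to it, and PAX6 and ZIC1 pattern the neural plate and its derivatives. Basic helix-loop-helix (bHLH) factors then act in sequence: NEUROG1, NEUROG2 and ATOH1 are proneural factors that commit progenitors to neurons of different kinds, NEUROD1 acts later in neuronal differentiation, and OLIG2 specifies motor neuron and oligodendrocyte progenitors. Nes encodes nestin, an intermediate filament protein of neural progenitors. In naive ES cells these genes are silent or low, and promoters of many developmental genes are known to lie in CpG islands held by Polycomb complexes. Accessibility at such a locus is thus not a measure of its transcription, which was not measured in these libraries.

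The same count was made at 6 pluripotency genes of ES cells. Nanog had 32 regions, Pou5f1 (encoding OCT4) 24, Esrrb 20, Zfp42 15, and Sox2 and Klf4 12 each. The count at Nanog lay at the 99.0th percentile of 21938 protein-coding genes that at Pou5f1 at the 92.8th, Esrrb at the 84.4th, Zfp42 at the 66.4th, and Sox2 and Klf4 at the 53.1st, near the median of all genes. A region covered an annotated TSS of Pou5f1, Esrrb, Zfp42 and Klf4. The region nearest to a TSS of Sox2 was 243 bp away, and that nearest to the TSS of Nanog was 4218 bp away. The list thus held regions at each of the 6 genes, without a region at the annotated start of Nanog. Only 1000 of the 21938 protein-coding genes had no region, however, so that regions at these genes do not identify the cells, and the ES cell label rests on the sample description.

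The sequences of 10 stretches in these regions are given first, since they show what the pooled list marks as open at the loci. They were taken from regions that hold an octamer, ATGCAAAT, the core recognised by OCT4, or that hold both a SOX motif, CCATTGT or CCTTTGT, and an E-box of the kind bound by neurogenic bHLH factors, CAGATG or CAGCTG. All were searched on both strands, as was a TCF motif, CTTTGAT, and sites of these 4 motifs are in capitals. On the other strand they read ATTTGCAT for the octamer, ACAATGG or ACAAAGG for SOX, CATCTG or again CAGCTG for the E-box and ATCAAAG for TCF. CCTTTGT and CTTTGAT share the letters CTTTG. Each stretch is 240 bases of the forward strand of GRCm38.p6 and lies outside annotated exons. Of 15 member regions that met this rule, 13 had such a stretch, and 9 of these are printed, both at Sox1 and Neurog1 and 1 at each other gene that had any, picked after their values were seen. The stretch chr6:64734550-64734789 at Atoh1 does not meet the rule and was also added after its values were seen. Within a region that met the rule, the stretch was placed to hold the most kinds of these motifs and then the most sites. The added stretch was placed to hold the most sites. Sites that lie together in a stretch thus partly reflect its placement. In these data a match means only that the letters are present, and 2.66% of all 81132 regions held the octamer, 16.0% a SOX motif, 41.9% an E-box and 6.04% a TCF motif. A SOX motif and an E-box occurred together in 10 member regions, 7.75%, and in 6083 of all regions, 7.498%. The pair was thus about as common over all regions as at the loci. Regions of the same widths were not compared for it. At Sox1 the stretches came from intergenic regions downstream of the gene, chr8:12439109-12439348 with the octamer and chr8:12478122-12478361 with a SOX motif between 2 E-boxes. At Pax6 chr2:105616117-105616356 lay in an intron of the antisense gene Pax6os1.
Sox1 octamer region: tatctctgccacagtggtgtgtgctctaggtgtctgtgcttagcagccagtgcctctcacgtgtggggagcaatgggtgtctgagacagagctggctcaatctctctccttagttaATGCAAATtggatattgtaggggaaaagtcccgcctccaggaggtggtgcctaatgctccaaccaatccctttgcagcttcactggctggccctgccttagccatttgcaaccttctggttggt
Sox1 distal region: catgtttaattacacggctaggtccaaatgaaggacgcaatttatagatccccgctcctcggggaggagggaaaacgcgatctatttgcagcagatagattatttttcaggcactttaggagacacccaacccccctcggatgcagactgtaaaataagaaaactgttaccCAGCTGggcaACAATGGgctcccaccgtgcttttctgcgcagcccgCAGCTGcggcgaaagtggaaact
Pax6 upstream region: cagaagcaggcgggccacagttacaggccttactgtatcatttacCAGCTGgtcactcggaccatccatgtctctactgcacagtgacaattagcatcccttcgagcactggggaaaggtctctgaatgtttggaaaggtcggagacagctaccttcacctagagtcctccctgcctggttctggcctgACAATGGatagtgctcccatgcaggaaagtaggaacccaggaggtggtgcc

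At Neurog1 the stretch chr13:56252164-56252403 is the sequence immediately upstream of the TSS, which lies on the reverse strand, with a SOX motif centred 59 bp and an octamer centred 151 bp upstream of the start. The stretch chr13:56221984-56222223 came from an intergenic region downstream of Neurog1, and there the E-box CAGATG and the octamer overlap by sharing ATG. At Neurog2 chr3:127695217-127695456 lay in an intron of Alpk1. The stretch chr6:64799441-64799680, intergenic and downstream of Atoh1, held 3 E-boxes, a SOX motif and a TCF motif, and chr6:64734550-64734789, intergenic and closer to Atoh1, held 2 E-boxes. At Neurod1 chr2:79429559-79429798 lay at an internal promoter of the neighbouring gene Cerkl. At Nes chr3:87974562-87974801 lay in intron 2 of Nes.
Neurog1 promoter: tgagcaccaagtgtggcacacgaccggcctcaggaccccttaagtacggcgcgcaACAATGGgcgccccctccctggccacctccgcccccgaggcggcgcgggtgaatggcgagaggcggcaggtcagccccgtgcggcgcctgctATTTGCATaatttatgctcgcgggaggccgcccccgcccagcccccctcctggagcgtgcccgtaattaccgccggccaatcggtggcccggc
Neurog1 downstream region: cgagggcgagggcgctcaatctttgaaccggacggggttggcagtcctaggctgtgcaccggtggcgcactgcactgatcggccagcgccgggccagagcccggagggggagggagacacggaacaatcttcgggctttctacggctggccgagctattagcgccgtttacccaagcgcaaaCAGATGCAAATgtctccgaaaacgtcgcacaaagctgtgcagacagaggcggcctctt
Neurog2 distal region: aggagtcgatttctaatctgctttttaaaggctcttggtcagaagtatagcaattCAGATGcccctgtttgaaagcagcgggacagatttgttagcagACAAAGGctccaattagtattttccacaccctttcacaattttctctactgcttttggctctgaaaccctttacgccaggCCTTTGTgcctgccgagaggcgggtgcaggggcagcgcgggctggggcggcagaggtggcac
Atoh1 distal region: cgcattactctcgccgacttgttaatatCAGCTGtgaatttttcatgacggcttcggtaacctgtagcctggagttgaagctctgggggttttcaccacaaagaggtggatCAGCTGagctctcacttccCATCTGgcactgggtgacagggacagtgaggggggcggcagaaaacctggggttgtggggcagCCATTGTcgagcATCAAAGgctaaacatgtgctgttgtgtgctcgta
Atoh1 downstream region: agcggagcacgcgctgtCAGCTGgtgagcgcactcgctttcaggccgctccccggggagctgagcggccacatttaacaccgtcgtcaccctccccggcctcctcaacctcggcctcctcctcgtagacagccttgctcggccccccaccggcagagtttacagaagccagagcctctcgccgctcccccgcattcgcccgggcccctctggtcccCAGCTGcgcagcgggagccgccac
Neurod1 distal region: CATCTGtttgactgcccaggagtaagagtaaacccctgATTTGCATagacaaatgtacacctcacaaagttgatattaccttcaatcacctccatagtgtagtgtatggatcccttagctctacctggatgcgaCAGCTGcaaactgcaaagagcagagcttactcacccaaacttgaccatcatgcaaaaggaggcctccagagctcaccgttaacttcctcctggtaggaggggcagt
Nes intron region: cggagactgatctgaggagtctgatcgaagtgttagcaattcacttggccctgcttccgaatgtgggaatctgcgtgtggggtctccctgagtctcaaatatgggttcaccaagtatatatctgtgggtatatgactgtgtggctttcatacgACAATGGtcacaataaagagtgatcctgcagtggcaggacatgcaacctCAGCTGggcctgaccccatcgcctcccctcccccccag

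The 9 loci differed in how many regions they held and where these lay. Nes had the most regions, 24, followed by Atoh1 with 21, Sox1 with 15, Neurod1 with 14, Pax6, Neurog2 and Zic1 with 13 each, Neurog1 with 10 and Olig2 with 6. The median was 13 regions per locus, against 11 over all 21938 protein-coding genes counted in the same way. Among these genes Nes stood at the 92.8th percentile and Atoh1 at the 86.9th, with ties at their middle rank. Sox1 stood at the 66.4th, Neurod1 at the 62.1st, the genes with 13 regions at the 57.6th, Neurog1 at the 43.4th and Olig2 at the 25.2nd. Without replicates of the list these counts have no error, and neighbours in the order such as Sox1, Neurod1 and Pax6 differed by 1 region. Upstream and downstream of the gene 5′ ends the regions were evenly divided, with 64 and 65.

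**Figure D1:**
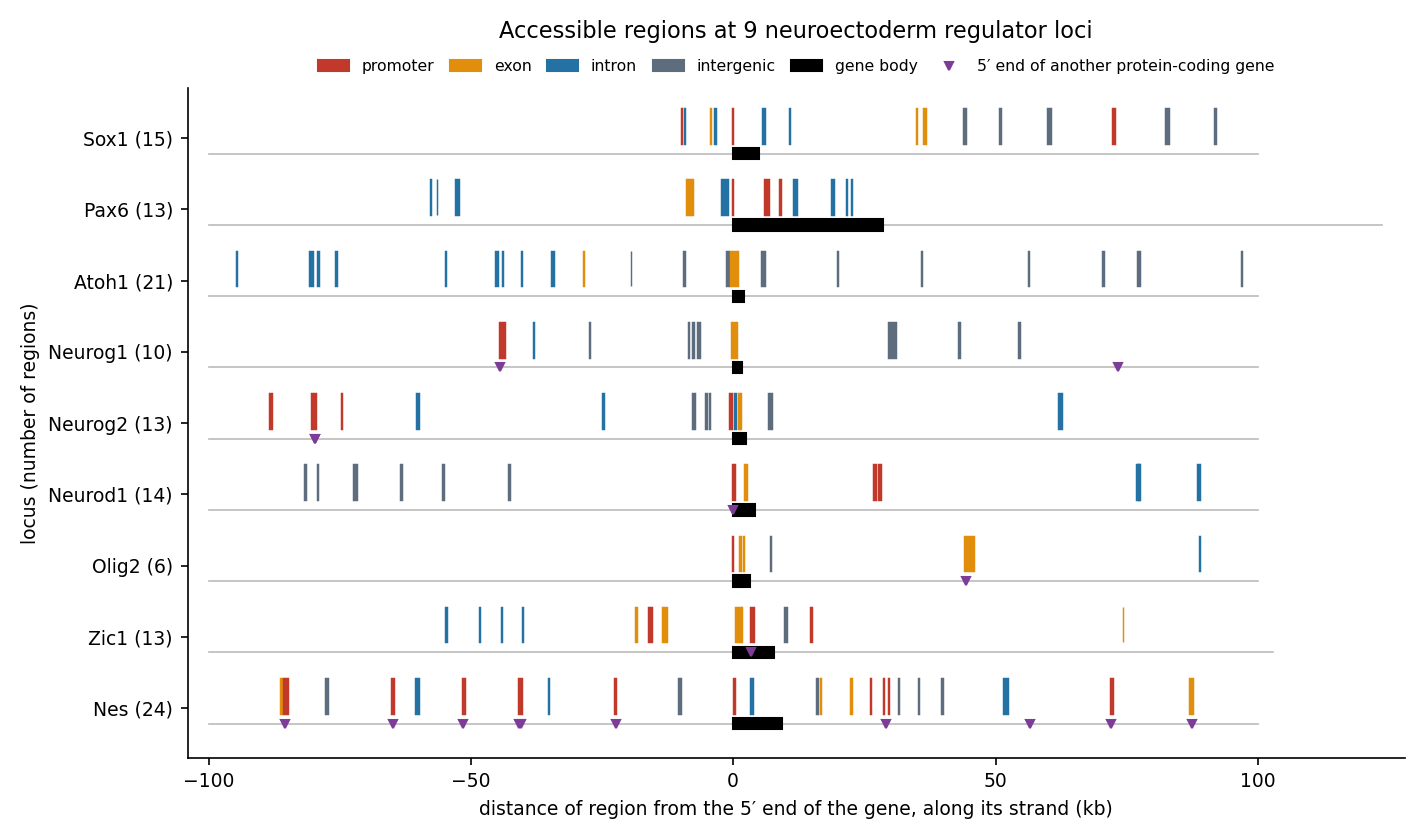
Map of the 129 accessible regions at the 9 loci. The x axis gives the distance from the 5′ end of each gene along its own strand in kb, boxes are regions to scale with a thin outline, coloured by the annotation at the region centre, black bars are gene bodies and triangles are 5′ ends of other protein-coding genes. Olig2 has 1 region upstream of its 5′ end, and the regions at Nes lie among 10 other protein-coding genes.

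The Sox1 gene (chr8:12395295-12400126, forward strand) had 5 regions upstream, all within 9896 bp of its 5′ end, and 10 downstream. The 90007 bp of the window further upstream held no region. A region of 195 bp (chr8:12395123-12395317) covered the TSS and was centred 75 bp upstream of it. It was among the narrowest at any TSS, at the 1.87th percentile of width over the 13467 protein-coding genes with a covered TSS. None of the 15 regions was centred in the short Sox1 gene body, while 8 lay in Sox1ot, the non-coding transcript that overlaps Sox1. The widest, 687 bp at 82723 bp downstream, held 2 SOX motifs and 3 E-boxes, and its sequence is in part printed above. A region of 562 bp centred 44039 bp downstream held the octamer. No TSS of another protein-coding gene lay in the Sox1 window, and Sox1 was the closest protein-coding gene for 14 of the 15 regions, but over all genes, non-coding ones included, for only 1.

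The Pax6 gene (chr2:105668900-105697364, forward strand), which has 24 annotated TSSs, had its regions concentrated around its promoters. Within 10 kb of a TSS or in the gene body lay 10 of the 13 regions, a count at the 96.4th percentile of protein-coding genes when each is counted from all of its TSSs. From the 5′ end alone 6 regions lay within 10 kb. A region of 274 bp centred 153 bp upstream of the 5′ end was preceded by the widest of the locus, 1284 bp (chr2:105666610-105667893), centred 1649 bp upstream. A region of 883 bp (chr2:105674822-105675704), centred 6363 bp into the gene, covered an internal TSS and held the octamer. In the transcript with 13 exons that begins at the 5′ end, the 6 regions of the gene body fell in introns 1, 3 and 7, with 3 of them in intron 7. A further 3 regions formed a group from 52590 to 57673 bp upstream within an intron of Pax6os1, and the widest of them, 777 bp, had a SOX motif and 2 E-boxes. Beyond 22593 bp downstream of the 5′ end, 100990 bp of the window had no region.

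The Zic1 gene (chr9:91358058-91365810, reverse strand) overlaps Zic4, another ZIC gene, on the opposite strand, and all of its 13 regions were also counted at Zic4. The region nearest to its TSS, 1102 bp wide (chr9:91364373-91365474), lay 294 bp downstream of a TSS and was centred in a coding exon. A region of 700 bp lay in intron 2 of the transcript with 3 exons, but it covered a TSS of Zic4, 238 bp from its centre. Upstream, a group of 3 regions from 13126 to 18510 bp lay in Zic4, and 4 from 40174 to 54723 bp lay in introns of the non-coding gene Gm29478. Zic1 was the closest gene for 2 regions only. Of the 13 regions, 7 were CpG-rich by the definition given below.

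The proneural genes Neurog1, Neurog2 and Atoh1 had regions of 1008, 513 and 1530 bp nearest to their TSSs. At Neurog1 (chr13:56250478-56252163, reverse strand) the region of 1008 bp (chr13:56251508-56252515) covered the TSS and held the octamer and the SOX motif printed above. A group of 3 regions lay from 6658 to 8464 bp upstream. The widest region, 1525 bp (chr13:56221157-56222681), lay 30244 bp downstream in intergenic sequence and held an octamer, a SOX motif, 2 E-boxes and a TCF motif. A region of 1079 bp lay at the promoter of Cxcl14, a chemokine gene 44388 bp upstream, and the next 55338 bp up to the edge of the window had none.

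At Neurog2 (chr3:127633135-127635631, forward strand) 6 regions lay within 9230 bp, from 7591 bp upstream of the 5′ end to 1128 bp downstream. None of them covered the TSS. A region of 406 bp was centred 505 bp upstream and a region of 513 bp, in intron 1, began 80 bp downstream of the TSS. A region of 577 bp was centred in the coding exon, exon 2. The widest region of the window, 1056 bp, was centred 12 bp from a TSS of Larp7 and covered the 5′ ends of both Larp7 and Zgrf1. A region of 508 bp, 88153 bp upstream, was centred 246 bp from the start of Mir302b, of the miR-302 cluster, which is active in pluripotent cells. The region with the most SOX motifs of the 129, with 3, was 676 bp wide in an intron of Alpk1 and lay 62305 bp downstream.

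At Atoh1 (chr6:64729125-64731245, forward strand) 13 regions lay upstream and 8 downstream. The region at the TSS, 1530 bp (chr6:64728551-64730080), covered the start and stood at the 98.0th percentile of width among regions covering a TSS. A region of 623 bp lay just upstream, centred 1143 bp from the start. Downstream, a region of 841 bp (chr6:64734388-64735228) was centred 5683 bp from the start, with 60.3% GC, a CpG observed/expected ratio of 0.694 and 2 E-boxes. An enhancer downstream of Atoh1 at which ATOH1 itself acts is known from developmental studies, and the overlap of this region with it was not tested. Farther upstream, a region 605 bp wide and centred 80475 bp from the start held an octamer. On chromosome 6 protein-coding genes had a median of 14 regions, and among the 1112 genes of this chromosome Atoh1 stood at the 75.7th percentile.

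The Neurod1 gene (chr2:79452521-79456751, reverse strand) had 2 regions in its body, 493 bp at the TSS (chr2:79456488-79456980), with a SOX motif centred 207 bp upstream of the start, and 668 bp in the coding exon, exon 2. Within 25 kb of the TSS these were the only regions, a count at the 28.7th percentile. The other 12 lay farther out. Upstream, 6 intergenic regions were spread from 42700 to 81640 bp and included the widest of the locus, 777 bp. Downstream, all regions lay in Cerkl, whose gene model spans Neurod1, with 2 at an internal promoter of Cerkl, of which the region of 473 bp held the octamer, and 4 in its introns. Between 28088 and 76823 bp downstream there was no region.

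The Olig2 gene (chr16:91225457-91228677, forward strand) had the fewest regions in the window of 100 kb, though not at every distance, as given below. A region of 301 bp (chr16:91225146-91225446) ended 11 bp upstream of the TSS, and the 99688 bp of the window further upstream held none. In exon 2 a region of 351 bp was centred in coding and a region of 180 bp in untranslated sequence, and a region of 285 bp lay 7086 bp downstream. The widest of all 129 regions, 1909 bp (chr16:91269448-91271356), was counted here at 44945 bp downstream, but covered the TSS of Olig1, the neighbouring bHLH gene of the oligodendrocyte lineage. At Olig2 no region held an octamer or a SOX motif, and 3 of the 6 held an E-box.

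The Nes gene (chr3:87971078-87980451, forward strand) lies in a gene-dense stretch of chromosome 3, with TSSs of 10 other protein-coding genes in the window. Each of these 10 had a region within 1 kb of a TSS. Accordingly Nes was the closest gene for 2 of the 24 regions. These were a region of 529 bp at the TSS (chr3:87970964-87971492) and a region of 611 bp (chr3:87974313-87974923) centred 3540 bp into the gene in intron 2, with a SOX motif and 2 E-boxes. The second intron of Nes is known for a neural progenitor enhancer, and the overlap of the region with it was not tested. Another 7 regions lay from 22487 to 39880 bp downstream, around the promoters of Bcan, which encodes the brain proteoglycan brevican. The widest region, 1015 bp, lay in an intron of Hapln2, and the promoter of Crabp2, a retinoic acid-binding protein gene, had a region of 266 bp.

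The assignment by distance therefore mixed regions at the members with regions at their neighbours. The closest TSS over all genes was that of the member for 39 of the 129 regions, and over protein-coding genes for 61. A TSS of Cerkl lies 34 bp upstream of the Neurod1 start, so that all 6 upstream regions of Neurod1 counted as closest to Cerkl. Of 19 protein-coding neighbours with a TSS in a window, 18 had a region within 1 kb of a TSS. Tifab, in the Neurog1 window, was the exception. Of the outermost region at each locus, those nearest to the 100 kb limit were centred 96861 bp from the TSS at Atoh1, 91830 bp at Sox1 and 88876 bp at Olig2. Just outside it lay regions at 100052 bp from Neurod1, 100132 bp from Neurog1 and 100894 bp from Nes.

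**Figure D2:**
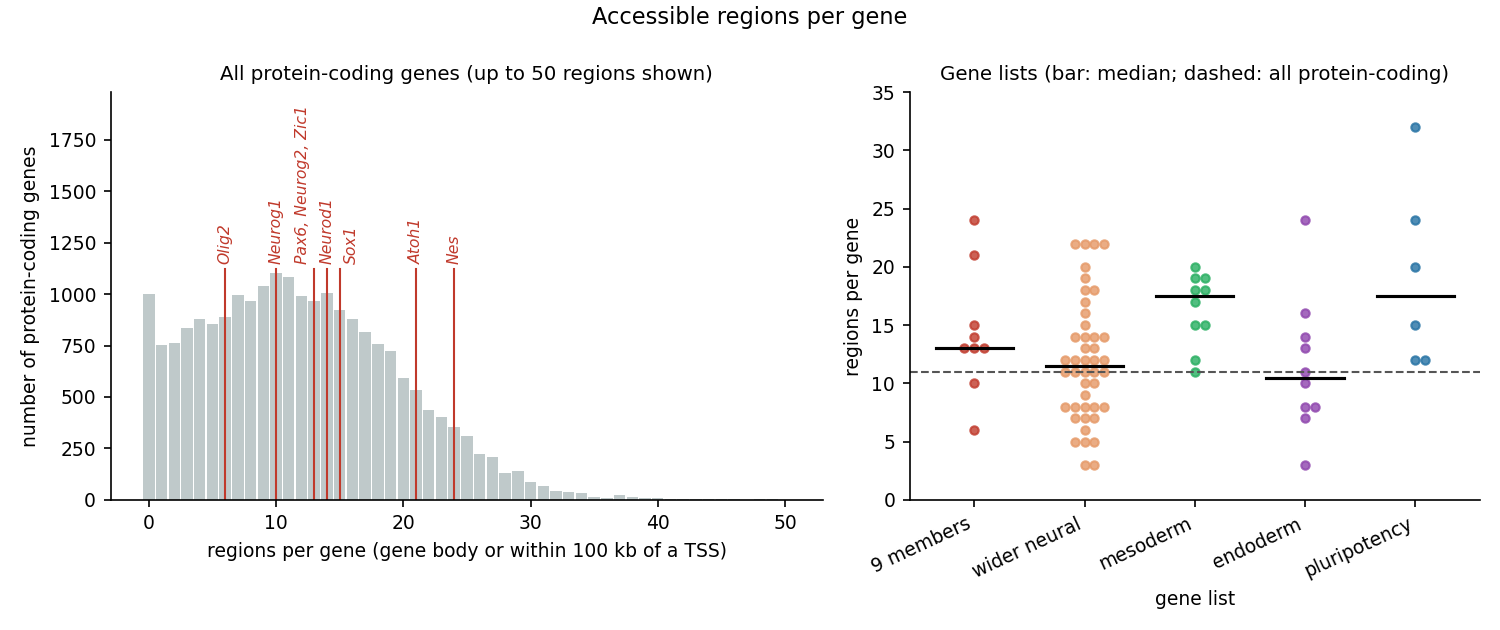
Left, number of protein-coding genes (y axis) by regions per gene (x axis), with the 9 members as red lines. Right, regions per gene in 5 gene lists, each point a gene, black bars the medians and the dashed line the median of 11 over all protein-coding genes. The members extend from 6 regions at Olig2 to 24 at Nes, with a median of 13.

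Around each of the 9 genes a region covered a TSS or lay within 1 kb of it. At Sox1, Pax6, Neurog1, Atoh1, Neurod1 and Nes it covered a TSS, and at Olig2, Neurog2 and Zic1 its nearest edge was 11, 80 and 294 bp away. Over all protein-coding genes 68.6% had a region within 1 kb of a TSS and 61.4% a covered TSS. The sequence around the 5′ end, 500 bp to each side, was CpG-rich (GC of at least 50% and CpG observed/expected ratio of at least 0.6) for 8 of the 9 genes, all but Pax6 with a ratio of 0.568. Of the 9738 protein-coding genes with a CpG-rich start, 98.3% had a region within 1 kb, against 44.8% of the 12200 others, so that a region at the start was the usual state of genes of this kind. The members differed from each other more in the width of that region. The median width at a covered TSS was 825 bp for genes with a CpG-rich start. Atoh1 with 1530 bp and Neurog1 with 1008 bp were wider, and Neurod1 with 493 bp, Nes with 529 bp and Sox1 with 195 bp were narrower, at the 12.4th, 14.9th and 1.12th percentile of these genes.

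**Figure D3:**
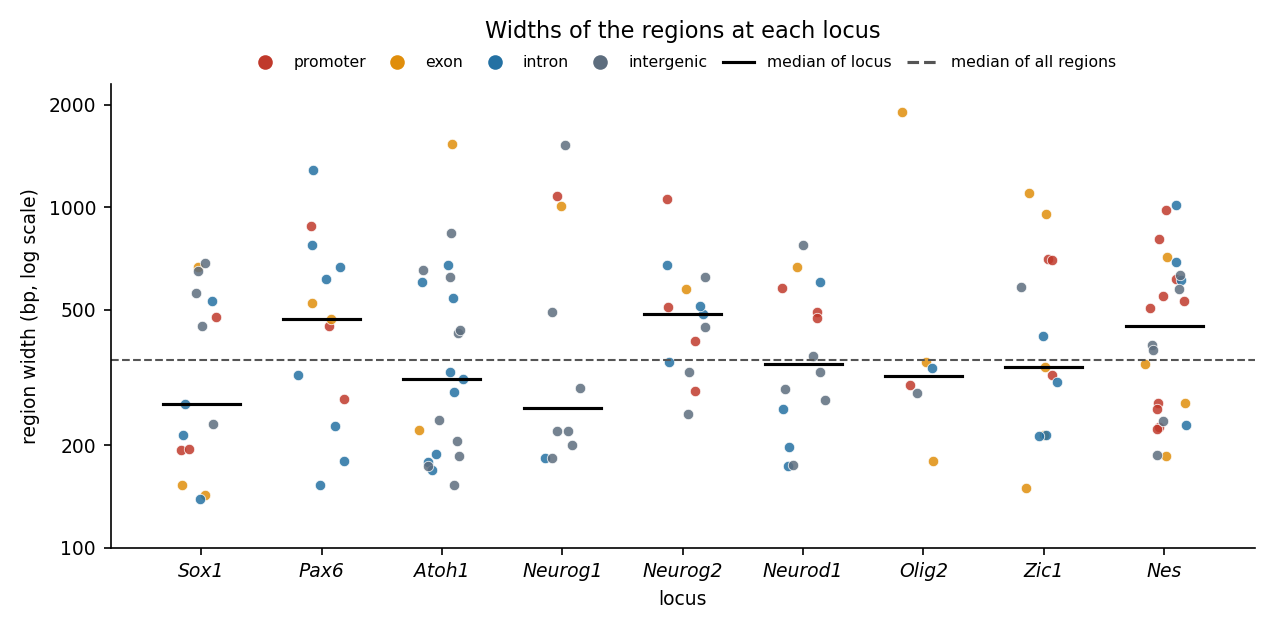
Width of each of the 129 regions in bp on a log scale (y axis) at each locus (x axis), coloured by the annotation at the region centre. Black bars are the medians of the loci, from 258 bp at Neurog1 to 487 bp at Neurog2, and the dashed line is the median of all 81132 regions, 355 bp.

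In width the member regions were like the list as a whole, with a median of 365 bp (quartiles 227 and 614 bp) against 355 bp (222 and 564 bp). Regions wider than 1000 bp made up 6.98% of the member regions and 4.75% of all, and 3 of the 9 at the members were at Neurog1. By the annotation at the centre 28 were in promoters (reaching 1000 bp before and 100 bp past any TSS), 22 in exons, 39 in introns and 40 in intergenic sequence. The promoter share was 21.7% (95% Wilson interval 15.5 to 29.6), against 21% of all regions. The exon share was 17.1% (11.5 to 24.5), against 8.76% of all regions, and of these 22 regions 5 were at Zic1 and 4 at Nes. Only 8 of the 28 promoter regions had a member TSS as the closest, and 10 of the 28 were at Nes. Atoh1 had none, because the region over its TSS is centred in the exon. Regions that were mostly repeat, with more than 50% of their bases soft-masked in the assembly, made up 7.75% of the member regions and 13.7% of all.

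The member regions were richer in CpG than the list as a whole. Their median GC was 55.6% against 51.9% and their median CpG observed/expected ratio 0.51 against 0.30. CpG-rich regions, of at least 200 bp and with the same GC and CpG limits as above, made up 30.2% of the member regions (23.0 to 38.6), against 18.2% of all regions. Within promoters the share was 50.0% (32.6 to 67.4) against 58.3%. Outside promoters, a comparison that was not planned, it was 24.8% (17.4 to 34.0) against 7.57%. Since promoters end 100 bp past a TSS, 9 of these 25 regions, among them those over the TSSs of Atoh1, Neurog1 and Olig1, were centred within 1 kb of a TSS. Without regions so close to a TSS, an alternative chosen after seeing the data, the share was 16 of 84 regions, 19% (12.1 to 28.7), against 4.04%. Of the 25 CpG-rich regions outside promoters 16 lay within 10 kb of a member TSS, 12 were centred in exons and 9 were intergenic. Zic1 had 6 of them, Neurog2 5, and Atoh1, Neurog1 and Olig2 3 each. Close to the genes, within 10 kb of a member TSS, 48.8% of 43 regions were CpG-rich, and beyond that distance 20.9% of 86. These are descriptions of a chosen set of loci, and neighbouring regions of a locus share base composition.

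**Figure D4:**
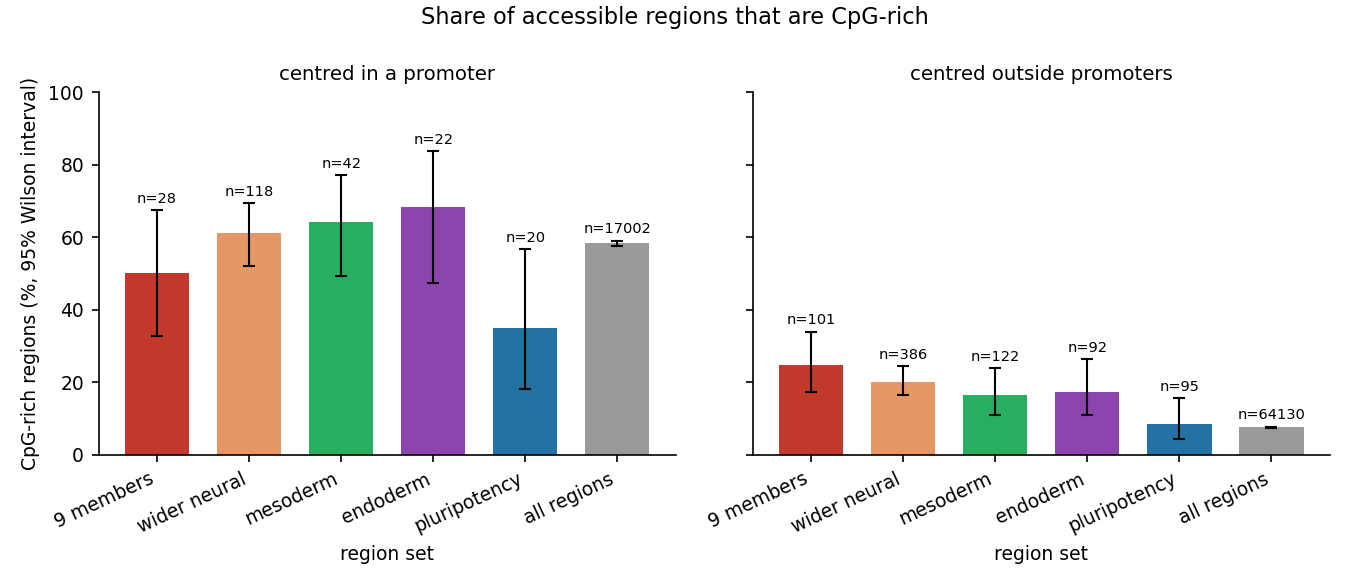
Share of regions that are CpG-rich (y axis, %, bars from 0) in the 9 member loci, 4 other lists of loci and all regions (x axis), for regions centred in a promoter (left) and outside promoters (right), with 95% Wilson intervals as error bars and the number of regions above. Outside promoters the share is 24.8% at the members and 7.57% over all regions.

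Motifs were counted beside all regions and beside all regions of the same width classes, since wide regions hold more of any motif. The octamer was in 6 of the 129 member regions, 4.65% (2.15 to 9.78), against 2.66% of all regions and 2.78% at the widths of the member regions. In the central 200 bp of the regions the octamer was in 0 of the 129 and in 1.51% of all. The limit used for a count of 0, 2.33% of the member regions, lies above 1.51%, so that no direction was read from this. The 6 regions with the octamer at full width were at Neurog1, with 2, and at Sox1, Pax6, Atoh1 and Neurod1 with 1 each. A SOX motif was in 18 regions, 14.0% (9.0 to 21), against 16.0% of all and 16.7% at the same widths, with 4 at Neurod1 and 3 each at Atoh1 and Neurog2. A neurogenic E-box was in 63 regions, 48.8% (40.4 to 57.4), against 41.9% and 43.6%, with 15 at Nes and 12 at Atoh1. For these 3 motifs the share at the same widths lay within the interval of the member share. A TCF motif was in 9 regions, 5 of them at Atoh1, or 6.98% (3.71 to 12.7) against 6.04% and 6.30%. The GC box of SP and KLF factors, GGGCGG, was in 34.1% of the member regions, against 29.3% of all and 32.1% at the same widths. The left arm of RE1, the element bound by the neuronal gene repressor REST, TCAGCACC, was in 3 regions, 2 of them at Zic1 and 1 at Nes, or 2.33% against 2.90% of all and 3.09% at the same widths. An octamer and a SOX motif occurred together in 2 regions, both at Neurog1 (1.55%, against 0.624% of all regions). These were 1008 and 1525 bp wide, and the pair was not counted at the same widths. More than 1 SOX motif was in 2 regions, at Sox1 and Neurog2.

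A wider list of 44 neural genes was counted in the same way, with a median of 11.5 regions per gene. The most regions, 22, were at the bHLH genes Atoh7 and Hes5 and at the adjacent genes Zic2 and Zic5, which share their window. The fewest, 3, were at Neurod6 and Sox3, followed by Neurod4, Irx3 and Fabp7 with 5 each. A region covered a TSS or lay within 1 kb for 40 of the 44. The exceptions were Neurod2, Neurod6, Dbx1 and Fabp7, with the nearest region 1709, 4049, 3128 and 2610 bp from a TSS. Neurod2 and Neurod6 act, like Neurod1, in differentiating neurons, and Fabp7 encodes a fatty acid-binding protein of radial glia. By family the median was 10 regions for 10 bHLH genes, 12 for 3 SOX genes, 11.5 for 16 homeobox or PAX genes, 17.5 for 4 ZIC genes and 11 for 3 POU genes. It was 9.5 for 2 other factors and 10 for 6 structural or RNA-binding genes. Of the 129 member regions, 19 were also counted for a gene of this list, at Zic4 and Olig1.

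Set beside lists of other lineages, the members lay between them in the median number of regions within 100 kb, 13. The median was 17.5 regions per gene for 10 mesoderm genes, from 11 at Msgn1 to 20 at T, 10.5 for 10 endoderm genes, from 3 at Cer1 to 24 at Hnf4a, and 17.5 for the 6 pluripotency genes, of which Sox2, with 12 regions, is also in the wider neural list. This order depended on the distance. Within 50 kb the medians were 10 at the members, 9.5 at the mesoderm, 6 at the endoderm and 13 at the pluripotency genes. Within 25 kb they were 7, 6, 5 and 7. A region within 1 kb of a TSS was found for 9 of 9 members, 7 of 10 mesoderm genes, 8 of 10 endoderm genes and 5 of 6 pluripotency genes. The mesoderm genes without one were Evx1, Tbx6 and Hand1, with the nearest region 1083, 1158 and 3989 bp from a TSS. The others were Hnf4a and Cer1, with 3259 and 25152 bp, and Nanog. T encodes Brachyury, the gene of the other reporter in these cells, and its TSS was covered by a region of 1233 bp. The exon share was 17.1% (11.5 to 24.5) at the members, 14.3% (11.5 to 17.6) at the wider neural genes, 14.6% (10.0 to 20.9) at the mesoderm genes, 11.4% (6.79 to 18.5) at the endoderm genes and 6.96% (3.57 to 13.1) at the pluripotency genes. The share of CpG-rich regions outside promoters was 24.8% at the members, 20.2% at the wider neural genes, 16.4% at the mesoderm genes, 17.4% at the endoderm genes and 8.42% at the pluripotency genes, where the interval (4.33 to 15.7) included the value of all regions. Without regions within 1 kb of a TSS it was 19% at the members, 15.5% (12.0 to 19.7) at the wider neural genes, 8.16% (4.19 to 15.3) at the mesoderm genes, 8.97% (4.42 to 17.4) at the endoderm genes and 4.71% (1.85 to 11.5) at the pluripotency genes. With the intervals of the developmental lists overlapping, no order among them was read from these shares.

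The counts depended on the distance allowed. Within 5 kb the members had a median of 3 regions against 2 over all protein-coding genes, within 10 kb 4 against 2, within 25 kb 7 against 4, within 50 kb 10 against 6 and within 200 kb 22 against 21. The loci also changed places. Pax6, counted from 24 TSSs, had the most regions within 25 kb, with 10, at the 93.2nd percentile, and kept that number up to 50 kb. Nes had 2 within 10 kb, at the 46.3rd percentile, and 45 within 200 kb, at the 95.6th. Olig2 had 4 regions within 10 kb, at the 76.0th percentile, and 6 within 100 kb, at the 25.2nd. Within 200 kb it had 22, at the 53.5th. Zic1 rose only from 13 to 14 regions between 100 and 200 kb. In regions per 100 kb, the 9 loci together had 37.6 within 1 kb of a TSS, 17.7 from 1 to 5 kb, 16.7 from 5 to 10 kb, 4.81 from 10 to 25 kb, 6.44 from 25 to 50 kb and 4.89 from 50 to 100 kb.

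**Figure D5:**
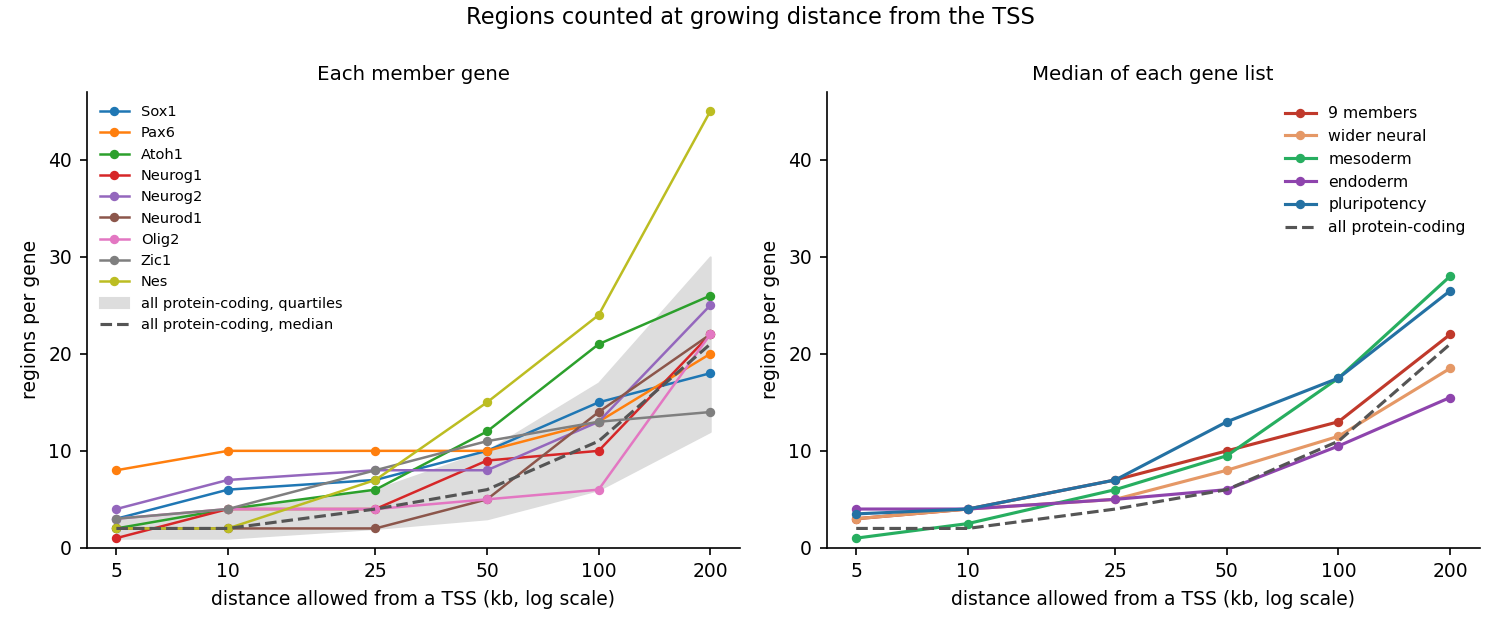
Regions per gene (y axis) by the distance allowed from a TSS in kb on a log scale (x axis), for each member with the median and quartiles of all protein-coding genes (left), and as medians of 5 gene lists and of all protein-coding genes (right). The members lie above the median of all genes up to 50 kb as a list, with 10 against 6 regions, and close to it at 200 kb, with 22 against 21.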

How the data were processed

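ATAC-seq was measured in 12 libraries of SBROS mouse ES cells, 3 each of SHOH, SHOL, SLOH and SLOL. Alignment by the authors was to mm10 (STAR 2.5.3a), with unique reads retained and Picard used against duplicates. The list is theirs: the union (BEDOPS) of MACS2 (2.1.1.20160309) peaks that each library gave on whole fragments, less any also found in ChIP-seq input. A shift of read ends for the Tn5 insertion is not given in the sources used here. Each entry has a chromosome, a zero-based start and an end in 3 columns, without a score, so the depth of the libraries and the precision it gives are unknown from it. The 4 ChIP-seq samples were not analysed here.

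From the list, regions were read with Python (3.11.15), numpy (2.4.6) and pandas (2.3.3) and placed on GENCODE M21. No region ran past a chromosome end of GRCm38.p6, the assembly that mm10 denotes, from which sequences were read with pysam (0.24.0). Coordinates are given counted from 1. Classes were given by the centre of a region, in the order promoter, exon, intron, intergenic. Percentiles set a member beside all protein-coding genes. Wilson intervals (scipy 1.17.1) cover counting error only. Plots were drawn with matplotlib (3.10.9). Counting of regions and motifs was tested on simulated data. Named were all members and, of each locus, the region closest to a TSS, the widest, and those with the octamer or several SOX motifs, and of the other lists the genes with the most and fewest regions or with none near a TSS. Other regions are named to describe a locus and were chosen after their values were seen. The members and lists were chosen with earlier results of these data known. The alternatives were other windows, promoter definitions, region filters and rules for the closest gene. The CpG-rich share outside promoters was not planned, and its alternative away from any TSS was added after seeing the data. No test was made.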

Additional observations from a re-analysis of the deposited data

How the results depend on the processing

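The list has no replicates, levels or library of origin, so that no value here has an error between samples, a region open in 1 library cannot be told from a region open in all 12, and cells of the sorted populations cannot be compared. No paired analysis was possible because the results come from no test and the list holds no value per library. Depth limits which regions enter the list, by an amount that is unknown. Peaks that overlapped ChIP-seq input peaks were left out of it, so that a TSS without a region cannot be called closed. Of 29 alternatives for the summary values, 17 left the value within its interval or within 1.5 times, and the other 12 are given here. The 129 regions became 56 with a window of 25 kb, 85 with 50 kb and 214 with 200 kb, 39 where the closest TSS over all genes had to be that of the member and 61 over protein-coding genes. The median of 13 regions per locus became 7 with 25 kb, 22 with 200 kb and 4 with the closest TSS over all genes. The promoter share of 21.7% became 50.4% with promoters of 5 kb to both sides. In the central 200 bp alone, a SOX motif was in 4.65% of the member regions and 8.73% of all, an E-box in 25.6% and 23.9%, and the octamer in 0 and 1.51%, where the limit used for a count of 0, 3 of 129 and not a Wilson limit, is 2.33% of the member regions. Of 54 alternatives for single loci, 29 were within 1.5 times and 25 were not. Using only the 5′ end of each gene, any overlap, joining of regions up to 500 bp apart or leaving out regions under 200 bp kept the summary values for which they were run within those bounds.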
